A study of Mus musculus with 3 samples.

Results

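The genes of the proteasome were examined in mouse liver. They were taken as every gene in the deposited tables whose symbol begins with Psm, followed by a letter from a to g and a digit, which gave 49 of 23356 distinct symbols. The choice used names and no measured value. It holds 19 core genes (Psma and Psmb), 20 cap genes (Psmc and Psmd), 4 activator genes (Psme), the inhibitor gene Psmf1, 4 assembly chaperone genes (Psmg) and Psmc3ip. Psmc3ip encodes a recombination factor named for binding a cap ATPase and is no subunit, so 48 of the 49 are proteasome genes proper. Counts over the set below include Psmc3ip, since the choice by symbol takes it in. No symbol was repeated among them, and none was missing in any library.

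RNA depleted of ribosomal RNA was sequenced from livers of mice of the C57BL6J/FVB strain background at an age of 16 weeks. The 3 groups were wild-type mice with free access to food (wt AL), Ercc1 delta/- mice with free access to food (Ercc1 AL) and Ercc1 delta/- mice under diet restriction (Ercc1 DR). Ercc1 delta/- mice carry a null and a shortened allele of a DNA repair endonuclease subunit and age early. Each group has 1 library, so no difference has a replicate check, no p-value or SD is given, and a ratio compares libraries rather than conditions. The labels do not say how many animals a library holds, nor their sex, nor how much food was withheld.

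The unit is FPKM, a fragment count scaled by transcript length and library size, so levels of different genes can be compared per length within a library. Where 3 values stand together, they are for wt AL, then Ercc1 AL, then Ercc1 DR. Each comes with a deposited interval that covers the error of 1 library only. The FPKM lay above the upper end of its own interval for 22, 32 and 33 of the 49 genes, against 9.70%, 12.9% and 13.0% of all rows lying outside theirs. Of all symbols, 10368, 11799 and 10819 reached 1 FPKM. The libraries also differ in general level: across 9053 genes that reached 1 FPKM everywhere, the median log2 ratio was 0.49 in Ercc1 AL against wt AL, 0.34 in Ercc1 DR against Ercc1 AL and 0.78 in Ercc1 DR against wt AL. Log2 ratios below are of FPKM + 1 and relative to these medians unless called as deposited. Genes with at least 1 FPKM in either library of a comparison were counted as measured, and a gene past 1.5-fold on this scale was counted as higher or lower.

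The proteasome degrades proteins tagged with ubiquitin. Its barrel, the core, is built of stacked rings of alpha and beta subunits with the cutting sites inside, and its cap recognises, unfolds and feeds in the substrate through a ring of ATPases. Activators can replace the cap, chaperones assemble the parts, and immune signals exchange the catalytic beta subunits for immunoproteasome forms. In stressed cells the transcription factor NRF1, the product of Nfe2l1, raises most subunit genes together, and mice whose hepatocytes lack it develop liver disease.

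As deposited, 41 of 47 proteasome genes measured in every comparison stepped upwards from wt AL to Ercc1 AL to Ercc1 DR, an order shown by 56.5% of all measured genes. Relative to the general level, 24 of the 47 kept that order, against 26.9% of all genes. The median proteasome gene stood at 6.41, 9.41 and 13.9 FPKM. Relative to the general level the median of each class lay within 1.5-fold in every comparison. The genes farthest below the others in Ercc1 DR against wt AL were the cap genes Psmd10, Psmc4 and Psmd14. The order of the 49 genes by level was closest between the free-fed libraries, with a Spearman correlation across genes of 0.967, at 0.922 between the mutant libraries, and least close between wt AL and Ercc1 DR, at 0.861. Genes are not independent replicates, and across all genes the same values were 0.944, 0.948 and 0.901, where the mutant pair was the closest.

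**Figure D1:**
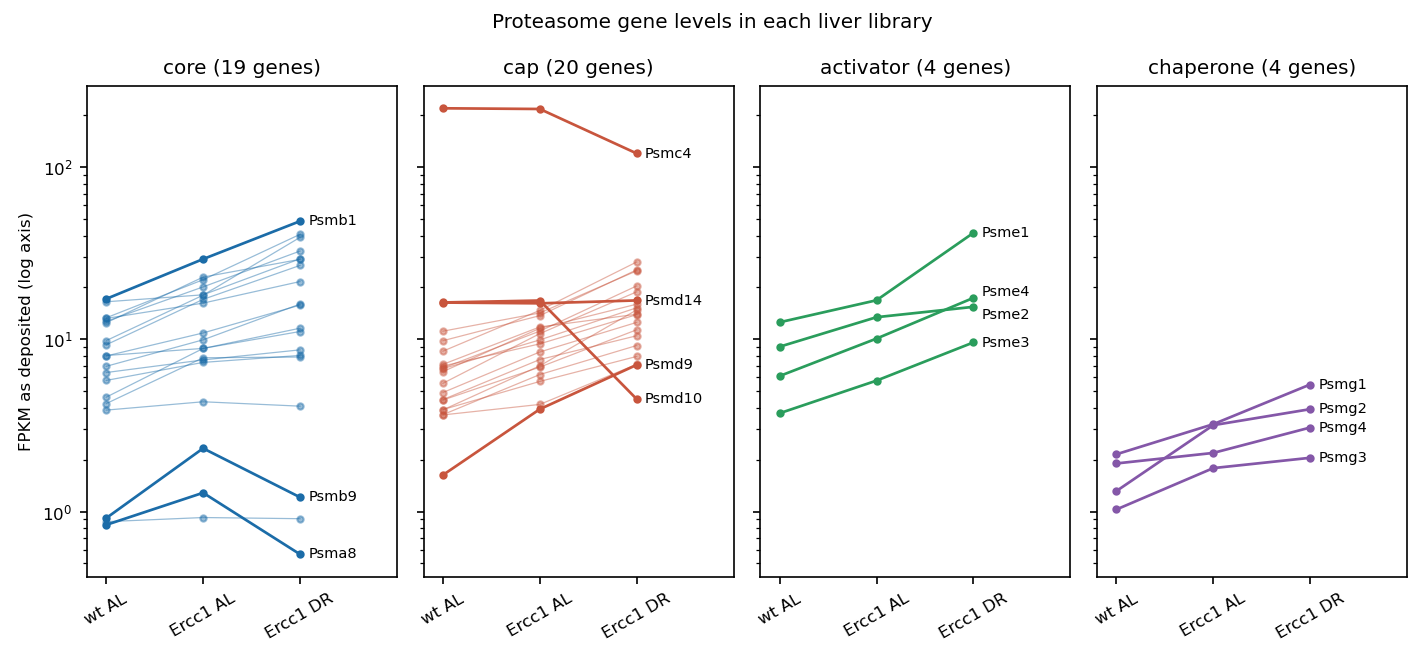
FPKM as deposited on a log axis in the 3 liver libraries, 1 line per gene, with core, cap, activator and chaperone genes in separate panels. Most lines climb from wt AL to Ercc1 DR, while Psmc4 and Psmd10 drop in Ercc1 DR and Psmd14 is level at 16.3, 16.2 and 16.8 FPKM.

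Alpha ring genes, whose products form the outer rings and the gate of the core, were above 0 relative to the general level in 6 of 7 cases in each comparison. Of all measured genes, 6256 of 12294 were above 0 in Ercc1 AL against wt AL. The like counts were 5504 of 12295 in Ercc1 DR against Ercc1 AL and 5782 of 12054 in Ercc1 DR against wt AL. Psma6 stood at 9.82, 18.0 and 39.0 FPKM, with deposited intervals of 7.36 to 9.06, 13.8 to 15.7 and 30.2 to 33.5. Its log2 ratio of 1.15 in Ercc1 DR against wt AL was the highest of the measured proteasome genes. Psma7 was next in the ring with 13.3, 22.2 and 40.6 FPKM and a log2 ratio of 0.79. Psma5 was the exception, at 5.77, 7.34 and 8.06 FPKM with a log2 ratio of -0.26 (0.42 as deposited), which left it the lowest of the ring in both mutant libraries. Psma5 values are uncertain, since its transcripts share 952 bases at 98.6% identity with the pseudogene Gm8394. Members of this ring stand in equal numbers in the particle, yet the highest exceeded the lowest 2.89-fold, 3.13-fold and 5.04-fold. Psma1, Psma2, Psma3 and Psma4 had log2 ratios from 0.38 to 0.54 in Ercc1 DR against wt AL. Of these, Psma3 shares 685 bases with the pseudogene Gm13835, and Psma4 shares 115 bases with AY074887, which it overlaps, so both carry a like uncertainty. The testis gene Psma8 was near the floor at 0.837, 1.28 and 0.565 FPKM.

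Of the structural beta genes, Psmb1 was the highest core gene in each library, at 17.1, 29.2 and 48.4 FPKM. Psmb4 stood at 9.28, 17.0 and 26.8 FPKM. Their log2 ratios in Ercc1 DR against wt AL were 0.69 and 0.70, whereas Psmb2 and Psmb3 had 0.18 and -0.07. Psmb3 nevertheless went from 13.2 to 21.6 FPKM as deposited, which is close to the change of the general level.

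Of the constitutive catalytic genes, Psmb5, which carries the chymotrypsin-like site, stood at 6.41, 7.59 and 8.68 FPKM, with intervals of 5.70 to 7.11, 6.90 to 8.29 and 7.89 to 9.47. Psmb6, the caspase-like subunit, stood at 8.05, 8.85 and 11.1 FPKM. Psmb7, the trypsin-like subunit, stood at 16.5, 18.1 and 29.3 FPKM. All 3 were below the general level in Ercc1 AL against wt AL, with log2 ratios of -0.22, -0.32 and -0.34, but above 0 as deposited, at 0.21, 0.12 and 0.13. In Ercc1 DR against Ercc1 AL they were at -0.13, -0.01 and 0.34, so Psmb7 was above the core median of 0.06 there. Against wt AL, Ercc1 DR had -0.31, -0.29 and 0.04, under the median of 0.48 for the alpha ring and 0.43 for the structural beta genes.

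Immunoproteasome genes, induced by interferon and abundant in immune cells, held their largest share of catalytic FPKM in Ercc1 AL. Psmb9 stood at 0.916, 2.33 and 1.21 FPKM. The intervals of wt AL (0.521 to 1.01) and Ercc1 DR (0.739 to 1.38) overlapped, and that of Ercc1 AL (1.52 to 2.21) lay above both. Psmb8 stood at 4.23, 7.81 and 7.89 FPKM, so it was level between the mutant libraries. Psmb10 was almost flat at 3.88, 4.34 and 4.09 FPKM. Beyond the general level, the log2 ratios of Psmb8, Psmb9 and Psmb10 were 0.33, 0.51 and -0.27 in Ercc1 AL against wt AL and -0.28, -0.80 and -0.34 in Ercc1 DR against Ercc1 AL. In this last comparison all 3 were thus on the low side, while as deposited Psmb8 was at 0.01. Psmb10 in Ercc1 AL against wt AL was likewise at 0.13 as deposited.

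Each immunoproteasome subunit replaces a given constitutive one, and the ratio of the 2 genes within a library does not depend on scaling. Psmb8 over Psmb5 was 0.660, 1.03 and 0.909, with bounds of 0.457 to 0.724, 0.744 to 1.10 and 0.655 to 0.957, so Ercc1 DR overlapped both others. Psmb9 over Psmb6 was 0.114, 0.263 and 0.109, and bounds formed from the deposited intervals put Ercc1 AL (0.184 to 0.328) above wt AL (0.0697 to 0.167) and Ercc1 DR (0.0713 to 0.163). Psmb10 over Psmb7 was 0.235, 0.240 and 0.140, where Ercc1 DR (0.127 to 0.180) lay below the others. Summed over the 6 catalytic genes, immunoproteasome genes held 22.6%, 29.5% and 21.2% of FPKM. Psmb9 values are uncertain because 212 bases of its transcripts also belong to transcripts of its neighbour Tap1, an antigen transporter gene. The other 2 pairs carry a like uncertainty. Psmb5 shares 796 bases at 98.9% identity with the pseudogene Gm3375 and overlaps Mir686. Psmb8 shares 124 bases with the antisense gene Gm20496, and Psmb7 shares 255 bases with Nek6. Psmb11, the thymus form, was at 0.874, 0.923 and 0.909 FPKM.

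**Figure D2:**
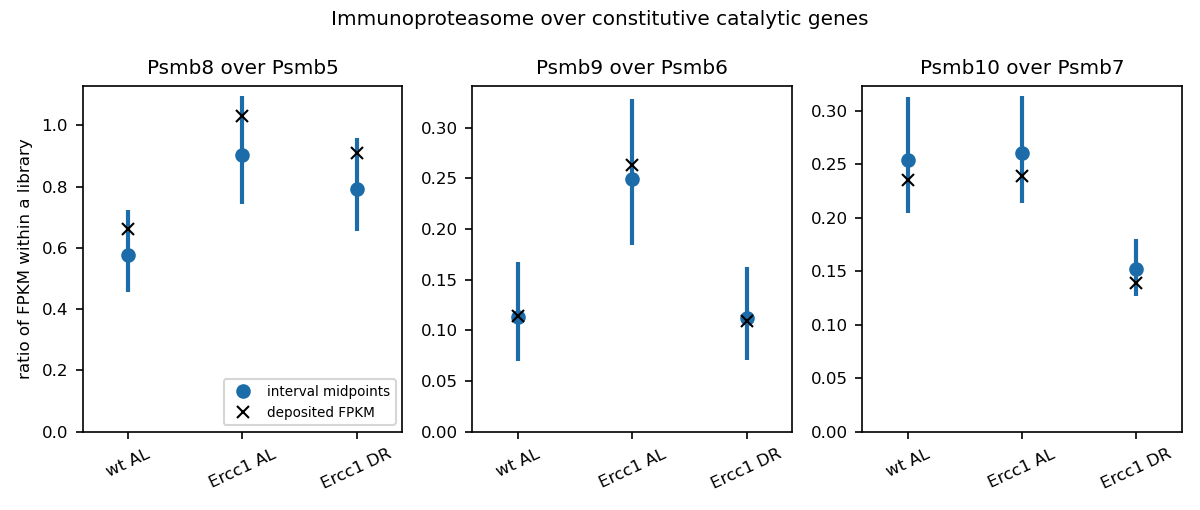
Ratio of FPKM within each library for the 3 pairs of immunoproteasome and constitutive catalytic genes. Crosses are deposited FPKM, circles interval midpoints and bars the bounds from the deposited intervals; Psmb9 over Psmb6 is highest in Ercc1 AL at 0.263 and Psmb10 over Psmb7 lowest in Ercc1 DR at 0.140.

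In bulk liver, fewer cells of a type and less RNA per cell cannot be told apart. The 6 macrophage markers summed to 13.1, 15.6 and 10.7 FPKM, and the 6 lymphocyte markers to 2.47, 3.45 and 1.81 FPKM, with no marker at 0. As deposited both sums were highest in Ercc1 AL and lowest in Ercc1 DR. Relative to the general level the median macrophage marker was at -0.03 in Ercc1 AL against wt AL and -0.63 in Ercc1 DR against Ercc1 AL, so it was not above wt AL on that scale, and no lymphocyte marker reached 1 FPKM. Neutrophil markers summed to 8.04, 5.87 and 2.90 FPKM, endothelial markers to 15.8, 14.1 and 9.67 FPKM and cholangiocyte markers to 3.47, 2.15 and 2.09 FPKM. These sums were highest in wt AL through few genes, such as Mpo (6.405, 3.50 and 1.24 FPKM) and Krt7 (2.37, 0.807 and 0.242 FPKM). S100a8, S100a9, Elane, Pecam1 and Clec4g were instead highest in Ercc1 AL as deposited, and Lyve1, Krt19, Sox9 and Epcam in Ercc1 DR. Of the endothelial markers only Kdr and Stab2 were highest in wt AL as deposited. Relative to the general level, the median endothelial marker was at -0.34 in Ercc1 AL against wt AL and -1.15 in Ercc1 DR against wt AL. On that scale 0 of 5 were above 0 in either comparison, beside 6256 of 12294 and 5782 of 12054 of all genes. The part of these cells in the immunoproteasome values was not tested. The hepatocyte marker Alb was missing in every library, and the other 5 hepatocyte markers were high throughout, with a sum of 1923, 2324 and 5345 FPKM. Of 10 antigen processing genes, 1 was higher and 1 lower in Ercc1 DR against Ercc1 AL, where 9.57% of all genes were higher and 23.3% lower, with a median log2 ratio of -0.25 that was 0.09 as deposited. Of 15 interferon response genes, 1 was higher and 5 lower, with a median of -0.24, and in Ercc1 AL against wt AL none was higher and 2 were lower, beside 5.98% and 11.2% of all genes, with a median of -0.27 that was 0.14 as deposited.

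Psmc4 stood apart from the other ATPases of the cap base. It was at 219, 217 and 119.8 FPKM, with intervals of 186 to 193, 185 to 191 and 102 to 106. The other 5 ATPase genes lay between 3.65 and 8.53 FPKM in wt AL and between 9.20 and 28.1 FPKM in Ercc1 DR. Psmc1 was the highest of them at 8.53, 14.7 and 28.1 FPKM, and Psmc6 stood at 5.55, 10.8 and 18.9 FPKM, with log2 ratios of 0.88 and 0.89 in Ercc1 DR against wt AL. Psmc2, Psmc3 and Psmc5 had ratios from 0.35 to 0.47. The 6 ATPases form 1 ring in equal numbers, but Psmc4 exceeded Psmc1 25.7-fold, 14.8-fold and 4.27-fold. The log2 ratio of Psmc4 was -0.50 in Ercc1 AL against wt AL (-0.01 as deposited) and -1.19 in Ercc1 DR against Ercc1 AL. Psmc4 spans chr7:28041702-28050092 (mm10), overlaps no other gene of the tables, and its transcripts share no stretch of 100 bases at 98% identity with another gene's transcripts in GENCODE M21. The sum over cap genes was 351, 407 and 398 FPKM with Psmc4 and 132, 190 and 279 FPKM without it, all as deposited, so this 1 gene holds a large part of the sum in every library.

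Psmd10 had the lowest ratio in both comparisons of Ercc1 DR. It encodes gankyrin, a chaperone of cap base assembly that also binds cell cycle regulators, and lies at chrX:140948425-140956711. It stood at 16.3, 16.8 and 4.49 FPKM, with intervals of 15.4 to 17.3, 16.1 to 17.7 and 4.06 to 4.93. The free-fed libraries overlapped, and Ercc1 DR lay below both. The log2 ratio of Ercc1 DR against Ercc1 AL was -1.99, at percentile 3.5 of all measured genes. The other base chaperone genes had log2 ratios above 0 in both comparisons of Ercc1 DR, of which Psmd9 against wt AL, at 1.03, passed 1.5-fold. Psmd9 stood at 1.63, 3.93 and 7.10 FPKM and Psmd5 at 3.91, 5.69 and 7.95 FPKM, with ratios of 0.20 against wt AL and 0.13 against Ercc1 AL. Psmd10 over Psmd9 was therefore 10.03, 4.27 and 0.633, so their order was turned around in Ercc1 DR, whatever the scaling of the libraries.

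The lid of the cap holds Psmd14, the metalloprotease that strips ubiquitin from substrates. It stood at 16.3, 16.2 and 16.8 FPKM, with overlapping intervals of 13.7 to 15.4, 13.6 to 15.1 and 14.1 to 15.7. Against the general level this was a log2 ratio of -0.70 in Ercc1 DR against wt AL, whereas as deposited it was 0.04, so its direction depends on the scaling. Psmd12, a scaffold subunit of the lid, stood at 3.89, 7.01 and 14.8 FPKM, a log2 ratio of 1.01. Psmd6 and Psmd8 had 0.74 and 0.55, and Psmd11, another scaffold of the lid, had 0.19 with 6.99, 9.41 and 13.9 FPKM. Psmd11 values are uncertain, since it shares 546 bases at 98.5% identity with the pseudogene Gm14048. Psmd3, Psmd7 and Psmd13 lay between 0.16 and 0.50. Shfm1, another lid gene, is listed here with the proteasome partners and stood higher than these, at 48.1, 47.1 and 68.1 FPKM. Among the 8 Psmd lid genes, the highest exceeded the lowest 4.49-fold in wt AL, where it was Psmd14, and 3.54-fold in Ercc1 DR, where it was Psmd8. This narrowing rests on Psmd14. It was level, while Psmd8 went from 9.81 to 25.3 FPKM and the lowest, Psmd3, from 3.64 to 7.15 FPKM. The Psmd lid genes as a whole therefore show no contrast with the alpha ring, where the spread widened. Of the other base genes, the ubiquitin receptor Psmd4 stood at 11.1, 14.2 and 24.9 FPKM, and the scaffolds Psmd1 and Psmd2 had log2 ratios of 0.50 and 0.17 in Ercc1 DR against wt AL.

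Among activators, Psme1 and Psme2 encode the subunits of a heptameric ring induced by interferon, and are separated by 5912 bases on chromosome 14. Psme1 stood at 12.6, 16.8 and 41.4 FPKM, with intervals of 9.61 to 11.5, 13.1 to 14.9 and 32.6 to 35.7. Psme2 stood at 9.05, 13.4 and 15.4 FPKM. Psme1 over Psme2 was 1.39, 1.25 and 2.69, or 1.17, 1.04 and 2.22 from interval midpoints. The ratio was thus highest in Ercc1 DR, where the bounds of 1.97 to 2.50 lay above those of wt AL (0.967 to 1.41) and Ercc1 AL (0.906 to 1.20). Both values are uncertain: Psme2 shares 794 bases at 99.4% identity with its copy Psme2b, and Psme1 overlaps Emc9. Psme3, the nuclear activator, was at 3.72, 5.75 and 9.59 FPKM, and Psme4, a large activator linked to histone degradation, at 6.12, 10.1 and 17.4 FPKM. Psmf1, an inhibitor of the core in vitro, was at 1.33, 2.81 and 4.42 FPKM, and its log2 ratio of 0.67 in Ercc1 DR against wt AL was close to the 0.66 of Psme4.

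The 4 core assembly chaperones had the lowest median level of the 4 classes, between 1.03 and 2.15 FPKM in wt AL and between 2.05 and 5.46 FPKM in Ercc1 DR. Psmg1 and Psmg2 act as a pair that builds the alpha ring. Psmg1 stood at 2.15, 3.21 and 5.46 FPKM and Psmg2 at 1.31, 3.17 and 3.93 FPKM. They differed in where the step lay: the log2 ratios of Psmg1 were 0.06 in Ercc1 AL against wt AL and 0.35 in Ercc1 DR against Ercc1 AL, and those of Psmg2 were 0.52 and -0.02 (0.85 and 0.24 as deposited). Psmg3 and Psmg4, the other pair, stood at 1.03, 1.79 and 2.05 FPKM and at 1.90, 2.19 and 3.07 FPKM. At this level the intervals are wide, as for Psmg3 in wt AL (0.608 to 1.12). Psmg3 also shares 238 bases with Gm26938. Psmc3ip, the recombination factor, stood at 1.48, 2.53 and 2.01 FPKM and overlaps Mlx.

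The mutant was first set beside the wild type under free feeding. In Ercc1 AL against wt AL, 0 of the 48 measured genes of the set were 1.5-fold higher and 0 lower, while 5.98% of all measured genes were higher and 11.2% lower, or 4.11% and 10.3% of protein-coding genes. The median log2 ratio was 0.14 beside 0.01 for all genes, and 32 of the 48 were above 0, beside 6256 of 12294 of all genes. Without Psmc3ip, 31 of 47 were above 0 with a median of 0.12. Psmd9 (0.56), Psmg2 (0.52) and Psmb9 (0.51) were highest. Psmc4 (-0.50), Psmd14 (-0.48) and Psmd10 (-0.43) were lowest, and as deposited these were level at -0.01, -0.01 and 0.04. As deposited, 22 were higher and 0 lower, beside 23.8% and 5.54% of all genes. Rescaled intervals were apart for 18 genes higher and 5 lower in Ercc1 AL, beside 24.1% and 27.7% of all genes. Over the 16 genes whose FPKM lay inside its own interval in both libraries the median was 0.14. The core median was 0.11 and the cap median 0.16.

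Diet restriction was compared within the mutant. In Ercc1 DR against Ercc1 AL, 3 of 48 were higher and 4 lower, beside 9.57% and 23.3% of all genes, or 10.2% and 18.6% of protein-coding genes. Those higher were Psme1 (0.93), Psma6 (0.75) and Psmd12 (0.68), of which Psme1 and Psma6 overlap another gene. Those lower were Psmd10, Psmc4, Psmb9 and Psma8. At 2-fold, 0 were higher and 2 lower, beside 3.07% and 11.9% of all genes. The median was 0.20 beside -0.06 for all genes, and as deposited 20 were higher and 3 lower, beside 21.5% and 16.6% of all genes. Rescaled intervals were apart for 24 genes higher and 8 lower, beside 29.6% and 38.4% of all genes. Over the 14 genes whose FPKM lay inside its own interval in both libraries the median was -0.0390, so the set's place above the general level was not seen in them. With interval midpoints in place of FPKM for all genes, the median stayed within the set limits. Why the 14 genes differ from the whole set was not tested. The class medians were 0.06 for core, 0.24 for cap, 0.39 for activators and 0.04 for chaperones. Of the activators 3 of 4 were above 0, beside 5504 of 12295 of all genes.

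Ercc1 DR and wt AL differ in both genotype and diet. In Ercc1 DR against wt AL, 12 of 47 were higher and 3 lower, beside 16.5% and 26.4% of all genes, or 17.2% and 22.2% of protein-coding genes. The 12 were Psma6, Psmd9, Psmd12, Psme1, Psmc6, Psmc1, Psma7, Psmd6, Psmb4, Psmb1, Psmf1 and Psme4, with log2 ratios from 0.66 to 1.15, and the 3 were Psmd10 (-2.34), Psmc4 (-1.64) and Psmd14. The median was 0.39 beside -0.03 for all genes. At 2-fold, 3 were higher and 2 lower, beside 5.93% and 16.4% of all genes. As deposited 37 were higher and 2 lower, beside 45.2% and 14.9%. Over the 14 genes inside their own intervals in both libraries the median was 0.14. Core genes had a median of 0.18 and cap genes one of 0.43, and over genes with at least 5 FPKM this difference of -0.25 was -0.0490. After rescaling, deposited intervals were apart with Ercc1 DR above for 28 of the 47, beside 33.7% of all genes, and below for 6, beside 38.3%. The comparisons share libraries, so they are not independent of each other.

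**Figure D3:**
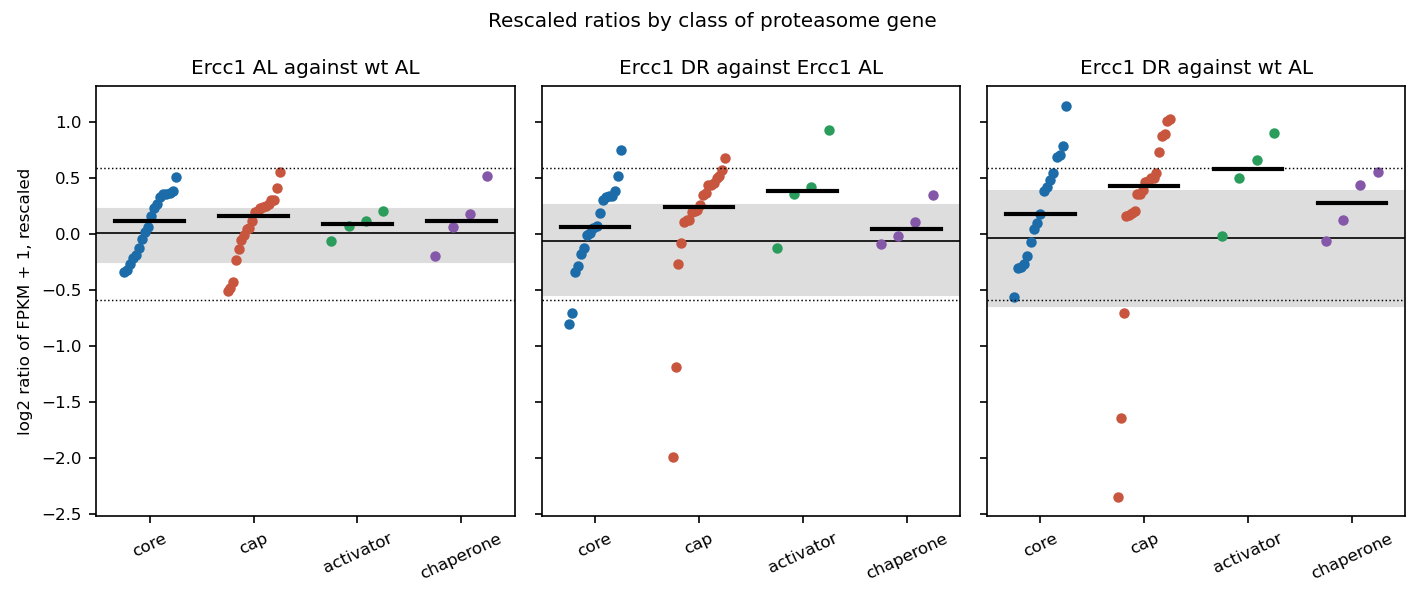
Rescaled log2 ratio of FPKM + 1 for each measured gene (points) with the class median (thick bars), in the 3 comparisons. The line and grey band are the median and the middle quartiles of all measured genes, and dotted lines mark 1.5-fold; cap genes reach from -2.34 to 1.03 in Ercc1 DR against wt AL.

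**Figure D4:**
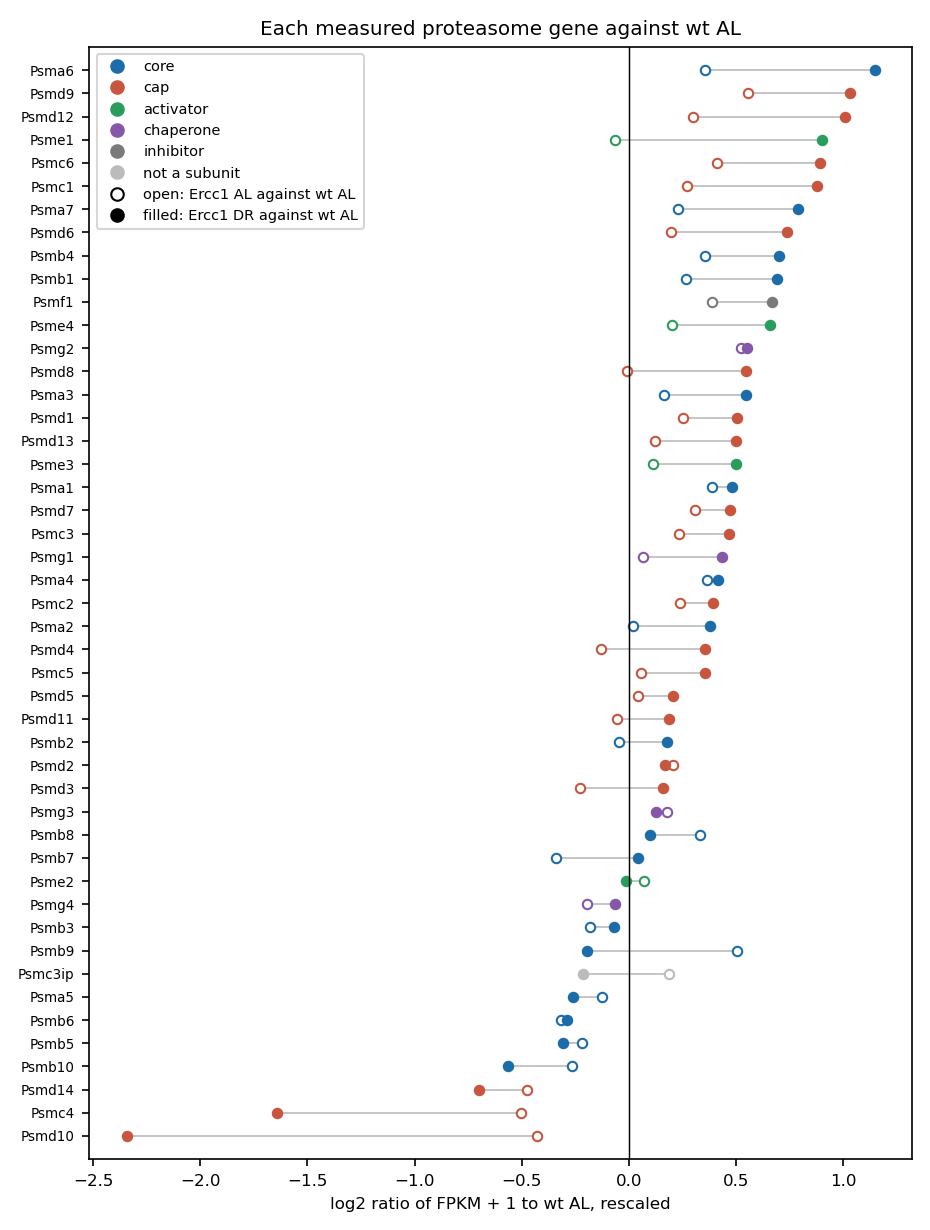
Rescaled log2 ratio to wt AL of each proteasome gene measured in that comparison, open circles for Ercc1 AL and filled circles for Ercc1 DR, coloured by class and sorted by the filled circles. Psma6 is at the top with 1.15 and Psmd10 at the bottom with -2.34.

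Promoter sequences, 250 bases before to 50 after the start site, were found in RefSeq (build GRCm38.p6, the assembly that mm10 names) for 41 of the 49 genes. They were searched on both strands for CCGGAAG, an ETS factor site, for TGACNNNGC, the core of the antioxidant response element that NRF1 and NRF2 bind, and for CCAAT, the NF-Y box. CCGGAAG was present in 15 of 41, which is 36.6%, beside 12.0% of all 16344 promoters matched. Among genes that reached 1 FPKM in every library it was present in 15 of 39 genes of the set, or 38.5%, Psmc3ip among them, and in 19.5% of 6317 genes. It lay in 9 of 17 cap promoters and 1 of 15 core promoters, a contrast seen only after the search. TGACNNNGC was present in 6 of 41 (14.6%, beside 13.4% of all promoters), in Psmb5, Psmb6, Psmc6, Psmd9, Psmd12 and Psme4. CCAAT was present in 14 of 41 (34.1%, beside 38.8%). The 15 genes with CCGGAAG had, in Ercc1 DR against wt AL, a median log2 ratio of 0.50, from -0.22 (Psmc3ip) to 1.15, and the 25 measured genes without it 0.20, from -2.34 to 1.03. Cap genes had a median of 0.43 and core genes one of 0.18 in this comparison, and the motif was more frequent in cap promoters. Within the cap, genes with CCGGAAG had ratios from 0.17 (Psmd2) to 1.01 (Psmd12). Cap genes with a promoter that lacks it had ratios from -2.34 (Psmd10) to 1.03 (Psmd9). The parts of motif and class in these ratios were not tested. The 6 genes with TGACNNNGC had a median of 0.77, from -0.31 to 1.03, and the 34 without it 0.37. These ranges overlap, no match shows that a factor binds, and matches of different motifs overlapped in no member's promoter.

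The promoters of the 3 proteasome genes with the highest log2 ratios in Ercc1 DR against wt AL (Psma6, Psmd9, Psmd12) and of the 3 with the lowest (Psmd10, Psmc4, Psmd14) show how the motifs fall at the extremes. They are printed 5′ to 3′ on the gene's strand, from 250 bases before the start site to 30 after it, with every match to the 3 motifs, on either strand, in capitals. Their positions are chr12:55398575-55398854 (plus strand), chr5:123227940-123228219 (plus), chr11:107479278-107479557 (plus), chrX:140956682-140956961 (minus), chr7:28050063-28050342 (minus) and chr2:61711444-61711723 (plus).
Psma6: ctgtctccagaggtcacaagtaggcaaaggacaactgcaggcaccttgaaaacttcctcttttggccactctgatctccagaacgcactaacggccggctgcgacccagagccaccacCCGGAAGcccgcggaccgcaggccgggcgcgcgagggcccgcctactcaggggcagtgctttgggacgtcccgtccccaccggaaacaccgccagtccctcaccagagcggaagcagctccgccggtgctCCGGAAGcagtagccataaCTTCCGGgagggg
Psmd9: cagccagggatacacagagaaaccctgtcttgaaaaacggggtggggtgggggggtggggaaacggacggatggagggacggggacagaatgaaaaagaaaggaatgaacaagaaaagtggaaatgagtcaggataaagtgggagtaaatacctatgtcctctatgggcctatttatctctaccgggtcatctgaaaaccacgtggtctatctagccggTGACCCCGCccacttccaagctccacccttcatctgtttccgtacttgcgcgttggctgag
Psmd12: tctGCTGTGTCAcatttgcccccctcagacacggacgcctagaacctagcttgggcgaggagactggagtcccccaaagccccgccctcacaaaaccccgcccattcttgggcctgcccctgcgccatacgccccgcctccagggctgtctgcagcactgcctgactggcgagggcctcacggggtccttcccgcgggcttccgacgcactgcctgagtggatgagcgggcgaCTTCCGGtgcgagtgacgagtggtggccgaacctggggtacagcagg
Psmd10: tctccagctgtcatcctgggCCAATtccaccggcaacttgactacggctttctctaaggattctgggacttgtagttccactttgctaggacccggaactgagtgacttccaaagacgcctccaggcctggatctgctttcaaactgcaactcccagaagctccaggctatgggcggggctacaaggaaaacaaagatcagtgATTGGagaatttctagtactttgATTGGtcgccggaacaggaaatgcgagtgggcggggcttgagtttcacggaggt
Psmc4: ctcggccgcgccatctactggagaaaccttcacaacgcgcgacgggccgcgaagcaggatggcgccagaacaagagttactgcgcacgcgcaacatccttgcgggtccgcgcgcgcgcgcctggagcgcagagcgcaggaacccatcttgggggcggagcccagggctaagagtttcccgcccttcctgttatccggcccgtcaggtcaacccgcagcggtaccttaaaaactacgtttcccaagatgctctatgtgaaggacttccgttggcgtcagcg
Psmd14: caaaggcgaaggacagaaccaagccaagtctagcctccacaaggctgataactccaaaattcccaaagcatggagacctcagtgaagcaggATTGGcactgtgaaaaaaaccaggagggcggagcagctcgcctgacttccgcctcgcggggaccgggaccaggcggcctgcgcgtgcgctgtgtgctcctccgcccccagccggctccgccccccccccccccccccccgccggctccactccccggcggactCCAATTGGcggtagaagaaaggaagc
Psma6 holds CCGGAAG 3 times, beginning 132 and 2 bases before the start site and, on the other strand, at base 18 after it. Psmd12 holds it once, 17 bases before the start, besides a TGACNNNGC match 247 bases before. Psmd9 has a TGACNNNGC match 31 bases before the start and no CCGGAAG. Psmd10 and Psmd14 hold CCAAT 3 times each and neither other motif, and the copies of Psmd14 at bases 5 and 8 overlap each other. Psmc4 holds none of the 3.

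Genes whose products work with the proteasome were compared next, and 14 of 16 listed partners were in the tables. Of 14 partner genes measured, 6 were higher and 1 lower in Ercc1 DR against wt AL, beside 16.5% and 26.4% of all genes, with a median log2 ratio of 0.37, close to the 0.39 of the proteasome genes. Adrm1, a ubiquitin receptor of the cap, stood at 1.06, 2.66 and 7.15 FPKM, a log2 ratio of 1.43. Pomp, which matures the core, stood at 48.7, 44.2 and 53.5 FPKM, a log2 ratio of -0.64 where the deposited values were slightly higher. Among NRF1 and NRF2 regulators, 1 of 10 was higher and 1 lower, against the same shares. Nfe2l1 stood at 3.71, 5.82 and 7.25 FPKM, Nfe2l2 at 7.58, 13.6 and 15.02 FPKM, and Ddi2, the protease that activates NRF1, at 19.2, 24.6 and 29.2 FPKM. Their log2 ratios of 0.15, 0.18 and -0.18 were within 1.5-fold. Ngly1, which removes sugars from NRF1, had 0.82, and Bach1, a repressor at antioxidant response elements, had -1.06.

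The COP9 signalosome resembles the lid in its subunits, and the CCT chaperonin folds actin and tubulin. The 9 signalosome genes had a median log2 ratio of 0.51 in Ercc1 DR against wt AL, with 3 higher and 1 lower, and the 8 CCT genes one of 0.94, with 6 higher and none lower, where 16.5% of all genes were higher and 26.4% lower. Each of the 8 CCT genes was above 0 in all 3 comparisons, from 0.43 to 1.60 in Ercc1 DR against wt AL, whereas proteasome genes reached from -2.34 to 1.15. In Ercc1 DR against wt AL, 5782 of 12054 of all genes were above 0. The difference between the lists was not tested.

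**Figure D5:**
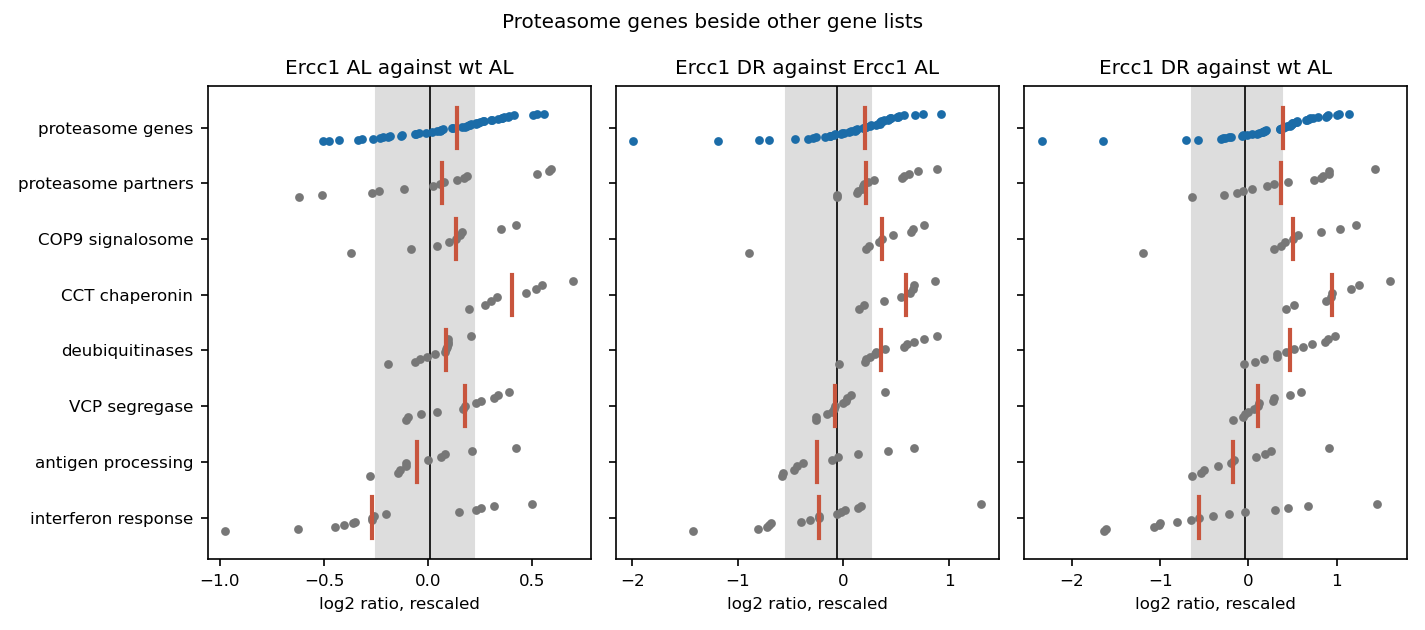
Rescaled log2 ratios of proteasome genes and of 7 other lists in the 3 comparisons, 1 point per measured gene, with list medians (coloured bars) and the median and middle quartiles of all measured genes (line and grey band). In Ercc1 DR against wt AL the median is 0.39 for proteasome genes, 0.94 for CCT genes and -0.56 for interferon response genes.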

How the data were processed

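The 3 liver libraries were assigned to groups by their titles, 1 library per group. The authors deposited 1 table per library of 23850 rows with an FPKM, a lower and an upper bound and a status code, per the file headers. The build was mm10, per the submitters' processing notes. For aligner, quantifier, annotation and strand use, the sources used here give nothing, so reads of a gene and an antisense partner cannot be told apart. Values with status HIDATA or FAIL hold 0 and were treated as missing (62 rows in wt AL, 96 in Ercc1 AL and 56 in Ercc1 DR). Where a symbol had several rows, that of highest mean FPKM stood for it. The tables hold no counts, so depth is unknown here.

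For each pair of libraries, FPKM were divided by the median ratio over 9053 genes with at least 1 FPKM in all 3, shared equally between both libraries, and the log2 ratio was taken with a pseudocount of 1, which understates low genes. No test was made. Alternatives were other pseudocounts, floors, scalings and folds, interval midpoints, summed symbols, and leaving out overlapping genes or genes outside their own interval. Protein-coding status came from RefSeq. Shared sequence was searched with blastn 2.17.0 in GENCODE M21 transcripts, at least 100 bases at 98% identity, and 15 of 49 genes had a match, mostly to pseudogene copies or overlapping neighbours. Other steps used Python 3.11.15 and pandas 2.3.3, and the ratio step was tested on simulated data. Written out in every library were the catalytic, immunoproteasome, activator, inhibitor and Psmg genes, Psmd4, Psmd11 and Psmd14, and the genes with the highest and lowest ratios. From other lists, the genes with the largest ratios and Nfe2l1, Nfe2l2, Ddi2, Pomp and Adrm1 were named; further genes were chosen after their values were seen. Members and lists were chosen with earlier results of these data known.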

Additional observations from a re-analysis of the deposited data

How the results depend on the processing

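With 1 library per group there is no replicate to leave out. No paired analysis was possible because each group has 1 library. As deposited, the median log2 ratio of proteasome genes was 0.52 in Ercc1 AL against wt AL, 0.50 in Ercc1 DR against Ercc1 AL and 1.09 in Ercc1 DR against wt AL. In these, 22, 20 and 37 genes were at least 1.5-fold higher, beside 23.8%, 21.5% and 45.2% of all genes. Psmd14 reversed to 0.0382 in the last comparison. Rescaling at 5 FPKM or over protein-coding genes, interval midpoints, summed repeated symbols and no filter on low values left all 12 summary values within the set limits. The share of all genes was not computed at other pseudocounts or over fewer genes. Whether the counts below at those settings differ from the general rate is therefore not known. In Ercc1 AL against wt AL, 3 genes were higher with a pseudocount of 0.1. In Ercc1 DR against Ercc1 AL, 2 genes were lower with a pseudocount of 5, with at least 5 FPKM, at 2-fold and without members outside their own interval. There 1 gene was higher without overlapping genes, 0 at 2-fold and 0 without members outside their interval, where the median was -0.0390. In Ercc1 DR against wt AL, 7 genes were higher with a pseudocount of 5 and 3 at 2-fold. Without members outside their interval, 3 were higher and 1 lower, with a median of 0.14 over 14 genes, and core minus cap was -0.0490 with at least 5 FPKM. The cause was not tested, except that fewer genes were counted where members were left out or the threshold was raised. Leaving out members outside their interval and rescaling over protein-coding genes were chosen after seeing the data. Values of 1 library under about 1 FPKM, as for Psmb9 or Psmg3 in wt AL, have wide intervals.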

Other observations

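Genes that attach and remove ubiquitin, upstream of the proteasome, were compared in the same way. Of 13 measured genes for ubiquitin, its activating enzymes and conjugating enzymes, 6 were at least 1.5-fold higher and 2 lower in Ercc1 DR against wt AL, where 16.5% and 26.4% of all genes were. The 2 lower were Ubb, a polyubiquitin gene, and Uba6, a ubiquitin-activating enzyme. As deposited, Ubb was at 38.2 FPKM in wt AL, 40.3 in Ercc1 AL and 41.1 in Ercc1 DR, so its log2 ratio of -0.66 in Ercc1 DR against wt AL rests on the rescaling. Uba6 was at 8.66, 3.33 and 4.09 FPKM, a log2 ratio of -1.59. Of 12 deubiquitinases, 5 were higher and none lower, with Uchl3 at 2.26, 3.44 and 8.97 FPKM.

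Of 7 measured ubiquitin ligase genes, 4 were higher and none lower in Ercc1 DR against wt AL, beside 16.5% and 26.4% of all genes. Among the 4 were the scaffold Cul3 at 3.31, 6.19 and 17.4 FPKM and Rnf4 at 3.27, 6.66 and 15.2 FPKM. The muscle atrophy ligases Fbxo32 and Trim63 were below 1 FPKM in every library. Genes of the VCP segregase, which extracts ubiquitin-tagged proteins, were nearer to the general level in this comparison, with a median log2 ratio of 0.11. Of these 11 genes, 1 was higher and none lower, against the same shares of all genes.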
